A study of Mus musculus with 30 samples.

Results

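The effect of the length of lard feeding on the ventral prostate (VP) was examined in male C57BL/6 mice of the PF group ("Por Fat" in the labels), which received lard as the fat source of an otherwise common diet from weaning. The PF mice killed after 12 weeks (n = 5) were compared with the PF mice killed after 32 weeks (n = 5), so that 10 of the 30 mice of the series, chosen by the diet and time in their labels, entered the comparison with all of their genes. The other 20 mice received linseed oil (LO) or soybean oil (SO) for the same times and were used to set the change in PF mice beside that on other fats and, in 1 fit of all 30 mice, to share the estimate of the spread. The labels name no transgene and no drug in any group. The older mice had also been fed longer, and the labels give no batch, so that age, time on diet and any batch of dissection, extraction or sequencing cannot be told apart in any value given here. The labels number the samples of a group from 1 to 5, and the sources used here do not state that each was a separate animal. They are called mice here, and the p-values measure the spread between these samples.

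The VP is a gland of tall secretory luminal cells on a sparse basal layer, wrapped in smooth muscle and fibroblasts that lay down collagen. Androgen maintains the luminal cells and drives the transcription of the few secretory genes that make up much of their mRNA. Stromal growth factors of the TGF-beta family also act on the epithelium. Because RNA of the bulk tissue was sequenced, fewer cells of a type and less RNA per cell cannot be told apart.

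The 10 libraries held 27836359 to 41301707 read pairs counted on genes, and the 10 most abundant genes took 20.7% to 35.2% of them. Sbp, the spermine-binding protein of the VP, reached 130465, 194493, 199683, 263364 and 199622 CPM (read counts scaled to the library size and composition) in the 5 mice at 12 weeks and 147904, 79773, 197749, 227513 and 217974 CPM at 32 weeks. The epithelial keratin Krt8 and the smooth muscle actin Acta2 were present in every mouse, and the seminal vesicle product Svs4 had no count in any of the 10 mice. The PF mouse 1 at 32 weeks had the lowest share of read pairs outside genes (6.67%, against 8.92% to 11.8% in the other 9 mice). The lncRNA Gm26917 was at 5.08, 0.381, 0.236, 0.432 and 0.0844 CPM in mice 1 to 5 at 12 weeks and at 6.72, 0.0992, 0.0723, 0.423 and 0.304 CPM at 32 weeks, high in the mouse numbered 1 at both times, and the mouse numbered 1 also had the highest value in the other 4 groups. Counts of gene lists were therefore also taken without both PF mice numbered 1, a setting in which 922 of 15724 genes (5.86%) were higher and 1158 (7.36%) lower at an unadjusted p under 0.05, against 3.43% and 4.27% with all 10 mice.

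With edgeR's quasi-likelihood test and Benjamini-Hochberg adjustment, 0 of 15778 genes (0%) differed between 12 and 32 weeks at an adjusted p under 0.05, and the smallest adjusted p was 0.5. At an unadjusted p under 0.05 there were 1215 genes (7.70%), of which 541 (3.43%) were higher and 674 (4.27%) were lower at 32 weeks. The values of the 5 older mice all lay above those of the 5 younger mice for 117 genes (0.742%) and all below for 93 genes (0.589%). DESeq2 called 50 of the 19157 genes it tested (0.261%), 33 higher (0.172%) and 17 lower (0.0887%), and 44 of the 50 passed the edgeR filter on low counts, each with an unadjusted edgeR p under 0.05. A fit of all 30 mice together, which shares 1 estimate of the spread, called 5 genes for PF (0.0301%): Lrif1, Slc6a15 and Gm10419 rose (0.0181%) and Ift122 and Gm53 fell (0.0120%). Unless a sentence says otherwise, the differences below are those of the 10 PF mice, as log2 fold changes at 32 minus 12 weeks with their standard error (SE), and they had an adjusted p of 0.5 or more by edgeR.

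**Figure D1:**
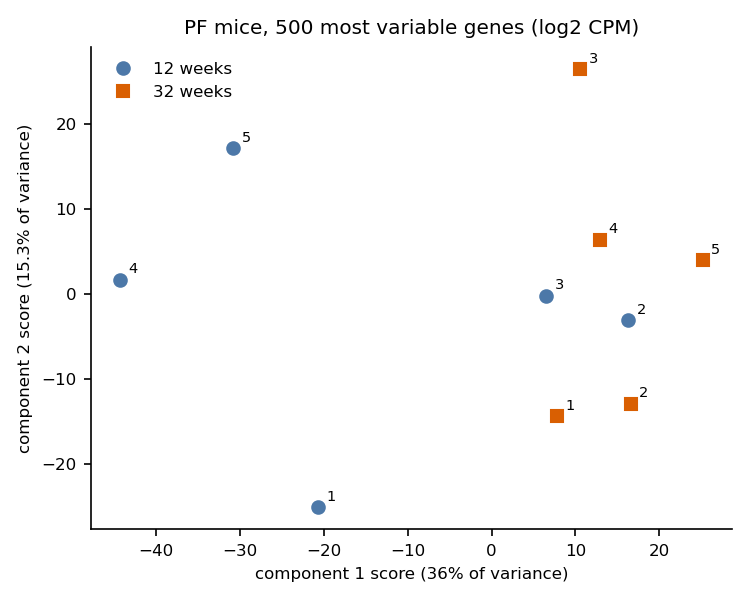
Scores of the 10 PF mice on the first and second principal components of the 500 most variable genes (log2 CPM), with mouse numbers. The 5 mice at 32 weeks lie between 7.8 and 25.2 on the first component, and the mice at 12 weeks spread from -44.3 to 16.3 and overlap them.

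The first principal component of the 500 most variable genes held 36% of the variance. All 5 mice at 32 weeks had positive scores, between 7.8 and 25.2. The 12-week mouse 2 scored 16.3 and lay among them, mouse 3 scored 6.5, just under the lowest of them, and the 12-week mice 1, 4 and 5 scored -20.7, -44.3 and -30.8.

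Among secretory products, Pbsn (probasin, an androgen-regulated lipocalin secreted by prostate epithelium) was at 2513, 2362, 1900, 2977 and 3150 CPM in the 5 mice at 12 weeks and 4891, 5334, 5542, 3115 and 4467 CPM at 32 weeks. Only mouse 4 at 32 weeks lay within the range of the younger mice. The mean was 2580 ± 500 CPM (SD, n = 5) at 12 weeks and 4670 ± 963 CPM (SD, n = 5) at 32 weeks, a difference of 0.86 ± 0.178 (log2, SE) with an edgeR adjusted p of 0.5, and DESeq2 called it (adjusted p = 0.00593). The same difference was 0.46 in SO mice and 0.50 in LO mice (edgeR adjusted p = 0.697 and 0.663), and the PF change did not differ detectably from either (edgeR unadjusted p = 0.607 and 0.639). The promoter window of Pbsn is shown because this gene is the most abundant of those with the smallest p-values. It covers 250 bases before and 50 after the gene start in RefSeq (GRCm38.p6, chrX:77853451-77853750, minus strand), and the capitals mark the androgen response half-site AGAACA or its reverse complement TGTTCT.

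Pbsn: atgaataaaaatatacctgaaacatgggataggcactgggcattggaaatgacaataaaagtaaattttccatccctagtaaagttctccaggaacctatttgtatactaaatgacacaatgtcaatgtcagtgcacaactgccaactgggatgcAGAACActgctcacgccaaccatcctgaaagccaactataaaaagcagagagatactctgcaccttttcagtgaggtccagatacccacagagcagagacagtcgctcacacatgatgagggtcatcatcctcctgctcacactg

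The window held 1 half-site, starting 95 bases before the gene start, and at least 1 was found in 6233 of 32851 promoter windows of this length (19%, both strands searched). The full palindrome of both half-sites, AGAACA and TGTTCT, with 3 bases between them was in 3 of the 32851 (0.00913%) but not in this one. A match of letters is a description only.

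Of the 14 tested members of the secretory list, 2 were higher (14.3%, against 3.43% of all genes) and 0 lower at an unadjusted p under 0.05. The median difference was 0.22 against -0.0068 over all genes. The second of the 2 was Defb50, one of the beta-defensins, which are small antimicrobial peptides of epithelia. It was at 3530, 3842, 3207, 4433 and 4609 CPM at 12 weeks and 5692, 6827, 5549, 4318 and 5236 CPM at 32 weeks, higher by 0.49 ± 0.141 (edgeR adjusted p = 0.583), with mouse 4 again inside the range of the younger mice. Defb10 was at 3.56, 1.06, 2.46, 3.76 and 3.88 CPM and then at 7.84, 9.84, 7.6, 5.31 and 5.16 CPM, with no overlap, higher by 1.28 ± 0.323 (DESeq2 adjusted p = 0.028). Of 43 beta-defensins, 6 passed the count filter, which mice of 1 time alone can satisfy. All 6 were higher at 32 weeks, 5 of them at an unadjusted p under 0.05 (83.3%, against 3.43% of all genes), with a median of 0.83. The group was put together after these values were seen. The most abundant products stayed within the spread between mice: Sbp differed by -0.18 ± 0.273 (edgeR adjusted p = 0.911) and Spink1, a trypsin inhibitor of the secretion, by 0.084 ± 0.224 (edgeR adjusted p = 0.954).

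**Figure D2:**
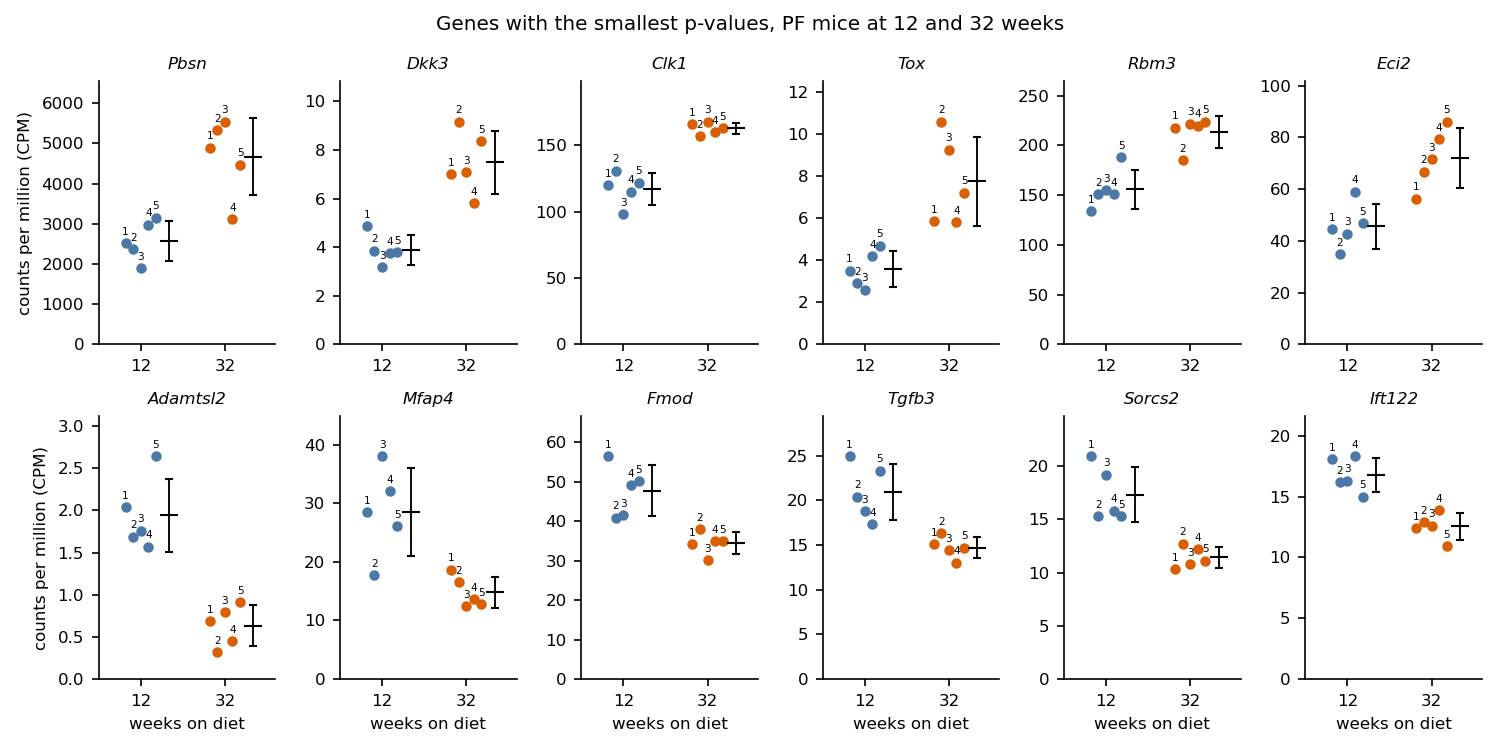
CPM of 12 genes in each PF mouse (numbered) at 12 weeks (blue) and 32 weeks (orange), with the mean and SD (n = 5) in black and every axis from 0. The upper 6 genes are higher and the lower 6 lower at 32 weeks. In the upper row Pbsn, Rbm3 and Eci2 overlap between the groups, and in the lower row Mfap4 does.

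Genes of other functions were also higher at 32 weeks. Dkk3, a secreted glycoprotein of the dickkopf family, was at 4.86, 3.86, 3.17, 3.76 and 3.8 CPM at 12 weeks and 7.01, 9.17, 7.09, 5.81 and 8.37 CPM at 32 weeks. The groups did not overlap, and the difference of 0.94 ± 0.16 had the smallest p of all genes tested (edgeR adjusted p = 0.5, DESeq2 adjusted p = 0.000168). Dkk3 also rose in SO mice by 1.37 and in LO mice by 1.0 (edgeR adjusted p = 0.00427 and 0.0382).

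Clk1, a kinase of splicing factors, was at 120, 131, 98.2, 115 and 122 CPM and then at 166, 157, 168, 160 and 163 CPM. The older mice averaged 163 ± 4.15 CPM (SD, n = 5) and all lay above the younger ones, with a difference of 0.47 ± 0.0808 (DESeq2 adjusted p = 0.000128). In the fit of all 30 mice the difference was 0.48 in PF, 0.29 in SO and 0.13 in LO mice. None of these was called (edgeR adjusted p = 0.0873, 0.0856 and 0.481). The PF change differed from the SO change at an unadjusted edgeR p of 0.18 and from the LO change at 0.0207. Lrif1, a nuclear protein that binds heterochromatin protein 1, was at 12.6, 12, 11.6, 11.3 and 10.7 CPM and then at 15.4, 15.4, 16.1, 14.8 and 16.2 CPM, without overlap, and it rose in the fit of all 30 mice (edgeR adjusted p = 0.0406).

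Rbm3, an RNA-binding protein induced by mild cold, was at 134, 151, 155, 151 and 188 CPM and then at 218, 185, 222, 220 and 224 CPM, higher by 0.46 ± 0.0983 (DESeq2 adjusted p = 0.00984). Mouse 2 at 32 weeks was the only older mouse below the highest younger one. The other cold-inducible RNA-binding protein, Cirbp, differed by 0.16 ± 0.187 (edgeR adjusted p = 0.879). Tox, an HMG-box transcription factor, was at 3.51, 2.91, 2.6, 4.19 and 4.7 CPM and then at 5.86, 10.6, 9.26, 5.81 and 7.21 CPM, higher by 1.11 ± 0.222 (DESeq2 adjusted p = 0.00308), with mouse 2 and mouse 3 the highest. The other protein-coding genes among the 15 with the smallest p-values in this direction were Nexmif, Cyp2j13 (a cytochrome P450), Gm826, Smgc, Eci2, Lix1, A2ml1 (a protease inhibitor), Defb15 and Cpe (carboxypeptidase E, which trims peptide hormones), with differences from 0.51 (Cpe) to 1.96 (Gm826).

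The genes lower at 32 weeks included secreted proteins of the matrix. Adamtsl2, a secreted protein of microfibrils, was at 2.04, 1.69, 1.76, 1.57 and 2.64 CPM at 12 weeks and 0.686, 0.322, 0.796, 0.452 and 0.911 CPM at 32 weeks. The groups did not overlap, and the difference of -1.62 ± 0.285 was called by DESeq2 (adjusted p = 0.000402). Adamtsl2 also fell in SO and LO mice, with differences of -1.37 and -1.65 (edgeR adjusted p = 0.0161 and 0.0146).

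Mfap4, another microfibril-associated protein, was at 28.5, 17.7, 38, 32.1 and 26.1 CPM and then at 18.7, 16.5, 12.4, 13.6 and 12.8 CPM, lower by 0.94 ± 0.191 (DESeq2 adjusted p = 0.00881), with the 12-week mouse 2 inside the range of the older mice. Mfap4 fell in LO mice (-1.04, edgeR adjusted p = 0.0205) and differed by -0.62 in SO mice (adjusted p = 0.126). Fmod, the collagen-binding proteoglycan fibromodulin, was at 56.4, 40.9, 41.6, 49.2 and 50.2 CPM and then at 34.1, 37.9, 30.2, 34.9 and 35 CPM, without overlap, lower by 0.47 ± 0.103 (DESeq2 adjusted p = 0.0475). Tgfb3, a TGF-beta ligand, was at 24.9, 20.4, 18.8, 17.3 and 23.3 CPM and then at 15.1, 16.3, 14.4, 13 and 14.7 CPM, without overlap, lower by 0.51 ± 0.113 (DESeq2 adjusted p = 0.0493). Neither Fmod nor Tgfb3 was called in SO or LO mice, where the differences were -0.34 and -0.19 for Fmod and -0.32 and -0.33 for Tgfb3. In the same fit of all 30 mice neither was called in PF mice (edgeR adjusted p = 0.193 and 0.159). The PF change did not differ detectably from that in SO or LO mice (edgeR unadjusted p = 0.486 and 0.135 for Fmod, 0.318 and 0.335 for Tgfb3).

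Sorcs2, a receptor of the sortilin family, was at 20.9, 15.3, 19.2, 15.8 and 15.3 CPM and then at 10.3, 12.7, 10.8, 12.2 and 11.1 CPM, a difference of -0.60 ± 0.116. The groups did not overlap, DESeq2 called it (adjusted p = 0.00918), and on the other diets the difference was -0.089 (SO) and 0.15 (LO). The difference between the PF and LO changes of Sorcs2 had an unadjusted edgeR p of 0.00199 and did not pass the adjustment. Ift122, a part of the ciliary transport machinery, was at 18.1, 16.2, 16.3, 18.3 and 15 CPM and then at 12.4, 12.9, 12.6, 13.9 and 10.9 CPM, without overlap, and it fell in the fit of all 30 mice (edgeR adjusted p = 0.0406). Cacna1g, a T-type calcium channel, was at 8.17, 3.62, 3.75, 3.78 and 3.35 CPM and then at 2.21, 2.35, 1.84, 1.95 and 2.04 CPM, with the 12-week mouse 1 far above the rest. The 15 genes with the smallest p-values in this direction also included Tmem150a, Brinp2, Kazn, Crispld2, Slc17a9 (a vesicular nucleotide transporter), Tead4 (a transcription factor of the Hippo pathway) and Exoc6 (a subunit of the exocyst), lower by 0.33 (Exoc6) to 0.84 (Brinp2).

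The collagens and their processing enzymes leaned the same way as a group. Of 17 collagens tested, 16 were lower at 32 weeks, 4 at an unadjusted p under 0.05 (23.5%, against 4.27% of all genes), with a median of -0.35, which stayed between -0.51 and -0.24 in all alternatives. The 4 were Col6a1 (-0.44 ± 0.133), Col6a2, Col12a1 and Col4a2. The summed collagen level was 1514, 1500, 1673, 992 and 883 CPM in the 5 mice at 12 weeks and 1053, 1170, 802, 829 and 980 CPM at 32 weeks, so the 12-week mice 4 and 5 lay within the range of the older mice. Of 20 genes of collagen processing, 17 were lower, 3 at an unadjusted p under 0.05 (15%), including Serpinh1, the collagen chaperone HSP47 (-0.73 ± 0.267). In SO and LO mice the median collagen difference was 0.018 and 0.12. At an unadjusted p under 0.05 the PF change differed from the SO change for 0 of the 17 collagens. It was lower than the LO change for 2 (4.19% of all genes). Of 16 genes of elastic fibres and other matrix, 12 were lower, 2 at that p (12.5%, against 4.27%), with a median of -0.20. With both mice numbered 1 left out, 7 of the 16 were lower, and the median was 0.044. Of 19 smooth muscle contractile genes, 18 were lower in PF mice with a median of -0.16, 4 at an unadjusted p under 0.05 (21.1%), and Lmod1, an actin nucleator of smooth muscle, was the only one without overlap (42.7, 30.6, 29.7, 30.7 and 38.3 CPM, then 28.3, 26.9, 28.3, 22.6 and 26 CPM). The contractile genes had medians of -0.10 in SO and -0.24 in LO mice. For 0 of them did the PF change differ from the SO or LO change at an unadjusted p under 0.05. Without both mice numbered 1, 15 of 17 collagens and 15 of 19 contractile genes were lower. Igfbp5, a binding protein of insulin-like growth factors made by stroma, was at 460, 477, 521, 360 and 406 CPM and then at 213, 350, 362, 328 and 354 CPM, with the lowest value in the 32-week mouse 1 and a difference of -0.47 ± 0.152 (edgeR adjusted p = 0.615).

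The androgen-binding protein genes Scgb1b and Scgb2b, a tandem family of secretoglobins on chromosome 7 known from mouse saliva, were examined because they were seen to be higher at 32 weeks, so their direction is a description. Scgb2b20 was at 1.07, 16.5, 14.5, 9.57 and 9.7 CPM at 12 weeks and 66.9, 11.1, 34.1, 255 and 131 CPM at 32 weeks. Mouse 2 at 32 weeks lay at the level of the younger mice and mouse 4 was the highest. The difference was 3.28 ± 0.825 (edgeR adjusted p = 0.578, DESeq2 adjusted p = 0.0493). Scgb2b7 was at 3.44, 193, 122, 28.8 and 19.7 CPM and then at 148, 33, 229, 829 and 484 CPM, with the same mouse 4 highest and a difference of 2.23 ± 0.996. Of 27 family members, 10 passed the count filter, which mice of 1 time alone can satisfy. All 10 were higher at 32 weeks, 8 at an unadjusted p under 0.05 (80%, against 3.43% of all genes), with a median of 3.18. Scgb2b20 and Scgb2b7 were highest in the same 2 older mice, 4 and 5, so the members do not count as separate evidence. Scgb2b20 rose in SO mice by 2.70 (edgeR adjusted p = 0.0264) and was higher by 1.91 in LO mice (adjusted p = 0.131). The promoter windows of 3 members are shown because they bear on how alike the copies are, with the androgen response half-site in capitals as above. They lie on chr7:32327196-32327495 (Scgb2b12), chr7:33366270-33366569 (Scgb2b20) and chr7:33739246-33739545 (Scgb2b24), all on the minus strand of GRCm38.p6.
Scgb2b12: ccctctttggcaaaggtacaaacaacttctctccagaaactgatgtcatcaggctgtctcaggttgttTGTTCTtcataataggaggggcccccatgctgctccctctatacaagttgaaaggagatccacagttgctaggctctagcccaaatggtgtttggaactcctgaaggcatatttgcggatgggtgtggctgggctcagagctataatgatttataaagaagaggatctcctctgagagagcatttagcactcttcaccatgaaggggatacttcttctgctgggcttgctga
Scgb2b20: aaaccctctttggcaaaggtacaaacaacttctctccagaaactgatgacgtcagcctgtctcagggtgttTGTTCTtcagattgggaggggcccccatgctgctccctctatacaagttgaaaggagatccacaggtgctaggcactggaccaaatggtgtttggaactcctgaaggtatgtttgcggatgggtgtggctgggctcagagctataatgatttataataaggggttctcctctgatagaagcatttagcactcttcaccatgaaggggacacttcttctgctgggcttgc
Scgb2b24: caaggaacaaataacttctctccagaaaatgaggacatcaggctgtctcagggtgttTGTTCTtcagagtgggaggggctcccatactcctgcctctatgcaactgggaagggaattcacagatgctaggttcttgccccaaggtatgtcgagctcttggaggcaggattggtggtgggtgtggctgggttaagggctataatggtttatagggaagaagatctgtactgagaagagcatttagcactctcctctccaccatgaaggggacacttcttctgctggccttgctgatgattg

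In a global alignment the windows of Scgb2b12 and Scgb2b20 were identical at 91.4% of columns, and that of Scgb2b24 at 77.3% and 74.0% to the other two. Each of the 3 held 1 half-site. Among other members searched, Scgb2b7 and Scgb2b17 held 1 each and Scgb2b27 held 0. Pbsn shared 48.3% to 49.4% of columns with the 3 windows shown. The transcripts were not compared, and whether reads were split between members was not tested, so the family sum is given too. It was 26.9, 299, 193, 87.2 and 68.3 CPM at 12 weeks and 334, 81.9, 389, 1481 and 813 CPM at 32 weeks, with the 32-week mouse 2 below 3 of the younger mice.

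**Figure D3:**
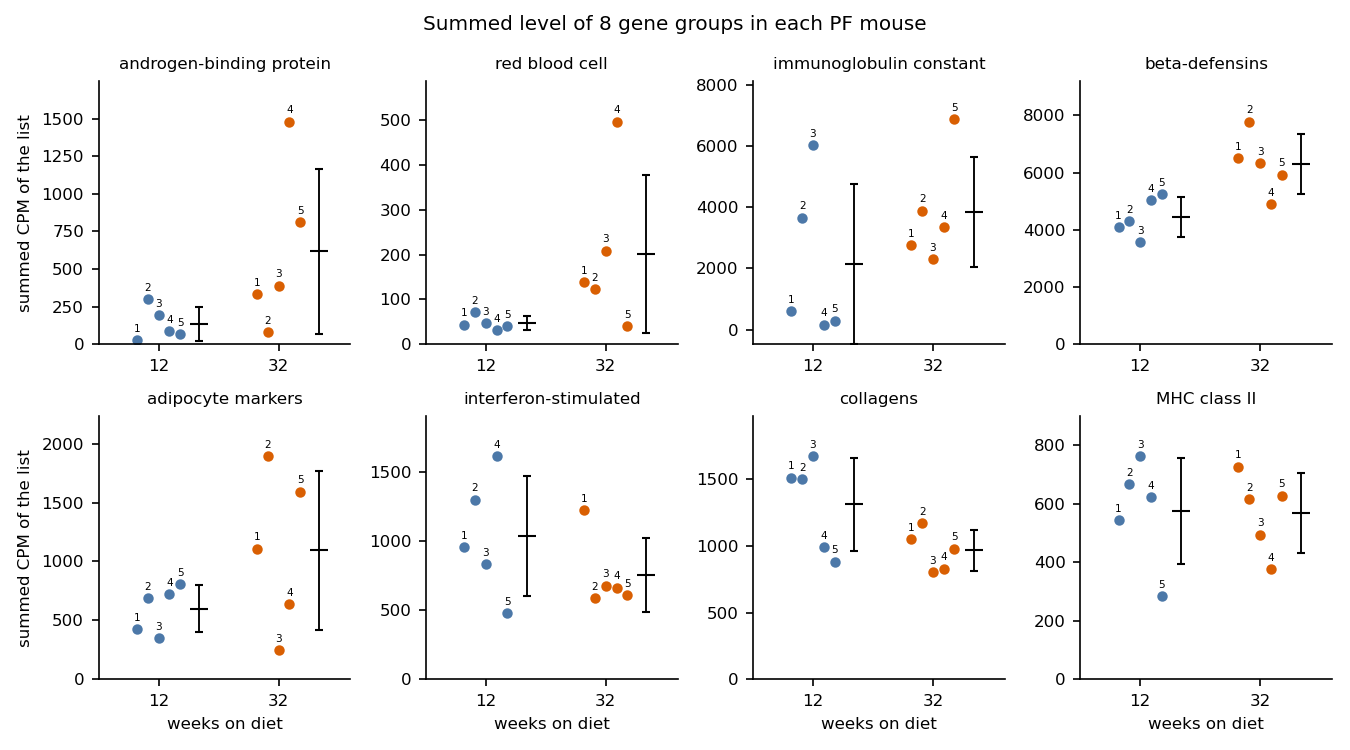
Summed CPM of 8 gene groups in each PF mouse (numbered) at 12 weeks (blue) and 32 weeks (orange), with the mean and SD (n = 5) in black. The red blood cell genes are higher in 4 of the 5 older mice, the immunoglobulin genes are low in 3 of the younger mice, and every group overlaps between the times.

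Immunoglobulin transcripts, which plasma cells make, had the largest fold changes among genes at an unadjusted p under 0.05. The summed constant genes were at 603, 3659, 6047, 162 and 289 CPM at 12 weeks and 2773, 3890, 2312, 3360 and 6885 CPM at 32 weeks. The older mice were all above the 12-week mice 1, 4 and 5, and the 12-week mice 2 and 3 lay among them. Ighg2c, the heavy chain of IgG2c, was at 3.01, 2.56, 6.58, 0.027 and 0.337 CPM and then at 27.6, 180, 58.8, 21.4 and 84.5 CPM, without overlap, higher by 4.91 ± 0.936 (edgeR adjusted p = 0.5, DESeq2 adjusted p = 0.0079). Of 204 variable segments, 128 passed the count filter, which mice of 1 time alone can satisfy, so their direction is a description. Of the 128, 107 were higher at 32 weeks, 38 of them at an unadjusted p under 0.05 (29.7%, against 3.43% of all genes). At that p 3 were lower (2.34%, against 4.27%). The segments share their mice and cell type of origin, so they do not count as separate evidence. Single segments were often high in 1 mouse. Ighv1-76 was at 0.224, 0.816, 0.0338, 0.108 and 0.0281 CPM and then at 0.515, 64, 10.3, 0.706 and 4.06 CPM, led by the 32-week mouse 2. Ighv3-1 was at 0, 86.2, 1.79, 0.162 and 0.0844 CPM and Ighv1-69 at 0.174, 0.136, 86.4, 0 and 0.619 CPM at 12 weeks, each nearly all from 1 younger mouse, and at 32 weeks they were at 0.0735, 0.471, 0.398, 0.593 and 0.745 CPM and 0.147, 1.14, 0.181, 2.12 and 0.469 CPM. Segments of one family are near-identical, and reads can be split between them. Of the 8 constant genes tested, 3 were higher at an unadjusted p under 0.05 (37.5%, against 3.43% of all genes). Without both mice numbered 1 there was 1 (12.5%, against 5.86%). In SO and LO mice the median difference of the constant genes was 2.82 and 3.74, against 1.54 in PF mice.

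Antigen presentation, T cell, macrophage and chemokine lists had medians between -0.14 and 0.14 in PF mice. The separate list of chemokine receptors (17 tested) had a median of 0.20. H2-Aa, the alpha chain of an MHC class II molecule, was at 107, 141, 166, 140 and 67 CPM at 12 weeks and 141, 146, 122, 84.6 and 145 CPM at 32 weeks, a difference of 0.042 ± 0.226 (edgeR adjusted p = 0.981), and the groups overlapped. Cd3e, a chain of the T cell receptor complex, was at 0.623, 1.33, 0.743, 1.03 and 0.394 CPM and then at 0.588, 1.49, 1.41, 0.706 and 1.46 CPM (0.45 ± 0.368), and these values also overlapped. In SO mice H2-Aa and Cd3e rose by 1.33 and 1.91 (edgeR adjusted p = 0.00948 and 0.0173).

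The list values that follow are changes over time, and the levels of these lists were not compared between diets. The median difference in PF, SO and LO mice was 0.0034, 1.5 and 0.78 for 12 MHC class II genes. For 17 T cell markers it was 0.14, 2.32 and 0.67, for 19 macrophage markers 0.048, 0.93 and 0.93, and for 29 chemokines 0.076, 1.02 and 0.75. The 6 neutrophil and eosinophil markers tested had medians of 0.59, 1.75 and 1.52, with 0 at an unadjusted p under 0.05 by edgeR in PF mice. The difference between the PF and SO changes was tested gene by gene in the fit of all 30 mice, where 0 of 16605 genes passed the adjustment by edgeR (0%, smallest adjusted p 0.158, 1576 genes or 9.49% at an unadjusted p under 0.05) and DESeq2 called 44. At an unadjusted p under 0.05 the PF change was the lower one for 1104 genes (6.65%) and the higher one for 472 (2.84%). The lower set held 11 of 12 MHC class II genes and 15 of 17 T cell markers, and the members of such a list share their cells of origin. The 5 smallest p-values of this difference belonged to H2-Q7, Itgax, Il2rb, H2-Q6 and Havcr2 (unadjusted p from 3.06e-05 to 6.91e-05), genes of class I presentation and of T and myeloid cells. H2-Q7 and H2-Q6 are near-identical copies that can exchange reads.

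**Figure D4:**
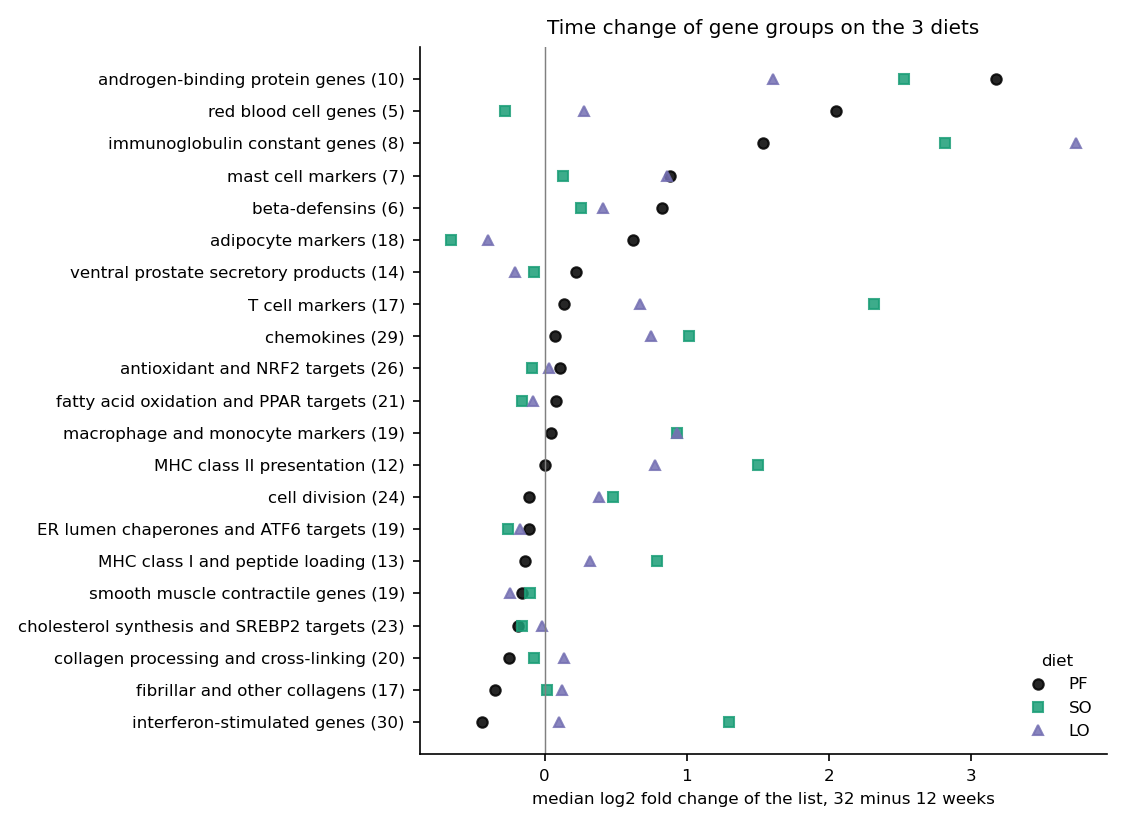
Median log2 fold change (32 minus 12 weeks) of 21 gene lists in PF (black circles), SO (green squares) and LO mice (purple triangles), with the number of genes tested in brackets. The T cell, chemokine, macrophage and MHC lists lie between -0.14 and 0.14 in PF mice and further right in SO mice, and the androgen-binding protein, red blood cell, beta-defensin and adipocyte lists lie further right in PF than in SO or LO mice.

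Of 30 interferon-stimulated genes tested, 29 were lower in PF mice at 32 weeks with a median of -0.44. Of these, 1 (Stat2) was lower at an unadjusted p under 0.05 (3.33%, against 4.27% of all genes). The summed level of the 30 genes was 956, 1303, 836, 1616 and 480 CPM at 12 weeks and 1227, 585, 677, 663 and 611 CPM at 32 weeks, and the older mouse 1 stood well above the other 4. Without both mice numbered 1, 29 of 30 were again lower, 11 at an unadjusted p under 0.05 (36.7%, against 7.36% of all genes in that setting), with a median of -0.71. The median was 1.30 in SO mice and 0.10 in LO mice. At an unadjusted p under 0.05, 27 of the 30 had a lower change in PF than in SO mice (6.65% of all genes did). Mast cell markers were higher in PF mice, 6 of 7 tested, 4 of them at an unadjusted p under 0.05 (57.1%, against 3.43% of all genes). Their median was 0.88 in PF, 0.13 in SO and 0.86 in LO mice. Cma1, the mast cell chymase, was at 1.1, 1.14, 2.43, 1.41 and 1.49 CPM and then at 3.95, 6.2, 1.37, 2.34 and 2.32 CPM (1.11 ± 0.383), highest in the older mice 1 and 2. Without both mice numbered 1 there was 1 mast cell marker higher at that p (14.3%, against 5.86% of all genes).

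Red blood cell genes were higher in 4 of the 5 older mice. Hbb-bs, the adult beta-globin, was at 18.6, 36.6, 20.7, 12.6 and 18.5 CPM at 12 weeks and 68.8, 66.7, 119, 291 and 18.5 CPM at 32 weeks, with the older mouse 5 at the level of the younger mice. The difference was 2.40 ± 0.594 (edgeR adjusted p = 0.578, DESeq2 adjusted p = 0.069), against -0.24 in SO and 0.24 in LO mice. All 5 red blood cell genes tested were higher at an unadjusted p under 0.05 (100%, against 3.43% of all genes). The PF change was also the higher one at an unadjusted p under 0.05 for all 5 against SO (2.84% of all genes) and for 4 against LO (3.61%). None passed the adjustment. Globin transcripts report blood held in the tissue as well as cells of the gland, and the part of blood was not tested.

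Lipid genes differed in a few members. Of 21 tested genes of fatty acid oxidation and PPAR targets, 14 were higher, 5 at an unadjusted p under 0.05 (23.8%, against 3.43% of all genes). Outside that list, Eci2, an isomerase that lets unsaturated fatty acids enter beta-oxidation, was at 44.4, 34.8, 42.7, 59 and 46.9 CPM and then at 56.3, 66.7, 71.5, 79.4 and 86.1 CPM, with the older mouse 1 below the younger mouse 4, and was higher by 0.66 ± 0.147 (DESeq2 adjusted p = 0.0229). The difference was 0.015 in SO and 0.21 in LO mice, and the PF change exceeded both at an unadjusted p of 0.00323 and 0.031. Acot1, an acyl-CoA thioesterase and a member of the list, was at 22.6, 21.8, 17.5, 21 and 19 CPM and then at 25.3, 25.3, 24.7, 27.8 and 26.1 CPM, without overlap, higher by 0.34 ± 0.0868 (DESeq2 adjusted p = 0.0415). Its difference was -0.43 in SO mice, and the unadjusted p between the PF and SO changes was 0.00114. Of 23 genes of cholesterol synthesis, 21 were lower with a median of -0.19. At an unadjusted p under 0.05, 2 were lower (8.7%, against 4.27% of all genes), including Srebf2, a master regulator of the pathway (-0.43 ± 0.134). Without both mice numbered 1 there were 5 (21.7%, against 7.36%). The medians of the 23 genes were -0.16 in SO and -0.016 in LO mice.

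Adipocyte markers, which report fat attached to the gland, were higher in PF mice by a median of 0.62 (16 of 18 tested) and lower in SO and LO mice (-0.66 and -0.40). At an unadjusted p under 0.05, 1 of the 18 was higher in PF mice (5.56%, near the 3.43% of all genes), and 0 without both mice numbered 1. The PF change was the higher one at that p for 1 marker against SO (2.84% of all genes) and 1 against LO (3.61%). The sum of the adipocyte markers was 423, 687, 346, 724 and 807 CPM at 12 weeks and 1108, 1892, 246, 634 and 1593 CPM at 32 weeks, above the younger mice in the older mice 1, 2 and 5 and below them in mouse 3. Adipoq, the adipokine adiponectin, was at 9.76, 21.9, 8.24, 33.2 and 28.7 CPM and then at 48, 79.4, 3.83, 25.1 and 70.8 CPM. Angptl4, a PPAR target of the oxidation list, was likewise highest in the older mice 2 and 5, at 4.68, 4.08, 6.11, 11.1 and 5.54 CPM and then at 10.7, 17.5, 5.64, 11.4 and 17.4 CPM, and the part of adipocyte genes in that list's result was not tested.

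Proliferation and stress lists gave no call in PF mice. Of 24 cell division genes, 18 were lower, with a median of -0.11. Only Top2a was lower at an unadjusted p under 0.05 (4.17%, against 4.27% of all genes). With both mice numbered 1 left out there were 4 (16.7%, against 7.36%), and the median was -0.30. The medians with all mice kept were 0.48 in SO and 0.38 in LO mice. For 0 of the 24 did the PF change differ from the SO or LO change at that p. Of 19 chaperones of the endoplasmic reticulum, 16 were lower with a median of -0.11, none at an unadjusted p under 0.05. Without both mice numbered 1 there were 3 lower (15.8%, against 7.36% of all genes) and 1 higher (5.26%, against 5.86%) at that p. The chaperone medians were -0.26 in SO and -0.17 in LO mice, with 5 and 2 called by edgeR (all genes 6.46% and 2.70%). For 17 genes of IRE1-XBP1 signalling and degradation the medians were -0.0014 in PF, -0.23 in SO and -0.22 in LO mice. The PF change was the higher one for 5 of these against SO and 8 against LO at that p (all genes 2.84% and 3.61%). Of 20 genes of the PERK-ATF4 stress response, 2 were lower (10%, against 4.27% of all genes) and 1 higher (5%, against 3.43%) at that p. Without both mice numbered 1, 6 of the 20 were lower, above the 7.36% of all genes in that setting. At the same p 1 of the 20 was higher, against 5.86% of all genes. Ddit3, the stress transcription factor CHOP, was at 12.2, 18, 12, 30.8 and 42.7 CPM and then at 15.5, 8.97, 12.7, 8.27 and 7.34 CPM, lower by 1.13 ± 0.366 (edgeR adjusted p = 0.615), with only the 12-week mice 2, 4 and 5 above every older mouse. Ddit3 also fell in LO mice (-1.77, edgeR adjusted p = 0.0228) and differed by -0.21 in SO mice (adjusted p = 0.817). Dnajb9, an endoplasmic reticulum co-chaperone, was at 62.5, 64.7, 68.2, 52.2 and 74.4 CPM and then at 76.9, 79.4, 98.2, 83.5 and 85.6 CPM, without overlap, higher by 0.40 ± 0.103 (DESeq2 adjusted p = 0.0856). It was lower in LO mice (-0.46), and the difference between the PF and LO changes had an unadjusted p of 0.000148. Of 26 antioxidant genes, 19 were higher, 4 (Gsta4, Gsta3, Sod1 and Nfe2l2) at an unadjusted p under 0.05 (15.4%, against 3.43% of all genes). Without both mice numbered 1 there were 4 higher (15.4%, against 5.86%) and 1 lower (3.85%, against 7.36%) at that p. Of 17 genes of the androgen response and prostate lineage list, 1 was higher at an unadjusted p under 0.05 (5.88%, near the 3.43% of all genes): Srd5a1, a steroid 5-alpha-reductase that makes dihydrotestosterone, at 3.09, 2.69, 2.97, 3.19 and 3.29 CPM and then at 4, 5.28, 3.87, 4.01 and 4 CPM, without overlap. Without both mice numbered 1, 3 of the 18 genes of that list then tested were higher (16.7%, against 5.86% of all genes) and 1 lower (5.56%, against 7.36%) at that p.

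The same time step was then read in PF mice over genes chosen in mice of another diet, which share no animal with them. In the fit of all 30 mice, 1073 of 16605 genes (6.46%) were called between 12 and 32 weeks in SO mice, 448 (2.70%) in LO mice and 5 in PF mice. The 871 genes that rose in SO mice (5.25%) had a median difference of 1.43 there, 0.75 in LO mice and 0.14 in PF mice, and 72.8% of them were higher in PF mice. The 289 genes that rose in LO mice (1.74%) had a median of 1.16 there, 0.88 in SO mice and 0.32 in PF mice, and 88.9% were higher in PF mice. A median over genes chosen for their change is larger in the mice that chose them. Of genes that fell, the 202 of SO mice (1.22%) had a median of -0.13 in PF mice, and the 159 of LO mice (0.958%) one of -0.12. With every mouse numbered 1 left out, the PF medians of the 4 sets were 0.22, 0.35, -0.14 and -0.10 in the same order. In the other direction, 447 of the 541 genes higher in PF mice at an unadjusted p under 0.05 were also higher in SO mice and 463 in LO mice, and 550 and 542 of the 674 lower genes were lower there. For the difference between PF and LO changes edgeR called 0 of 16605 genes (0%, smallest adjusted p 0.343, 1294 genes or 7.79% at an unadjusted p under 0.05), and DESeq2 called 12. At that p the PF change was the higher one for 599 genes (3.61%) and the lower one for 695 (4.19%). Between mice of one group the median SD of log2 CPM was 0.185 at 12 weeks and 0.226 at 32 weeks in PF mice, against 0.179 to 0.19 in the other 4 groups, and without the mouse numbered 1 it was 0.151 at 32 weeks in PF mice and 0.138 to 0.165 elsewhere.

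**Figure D5:**
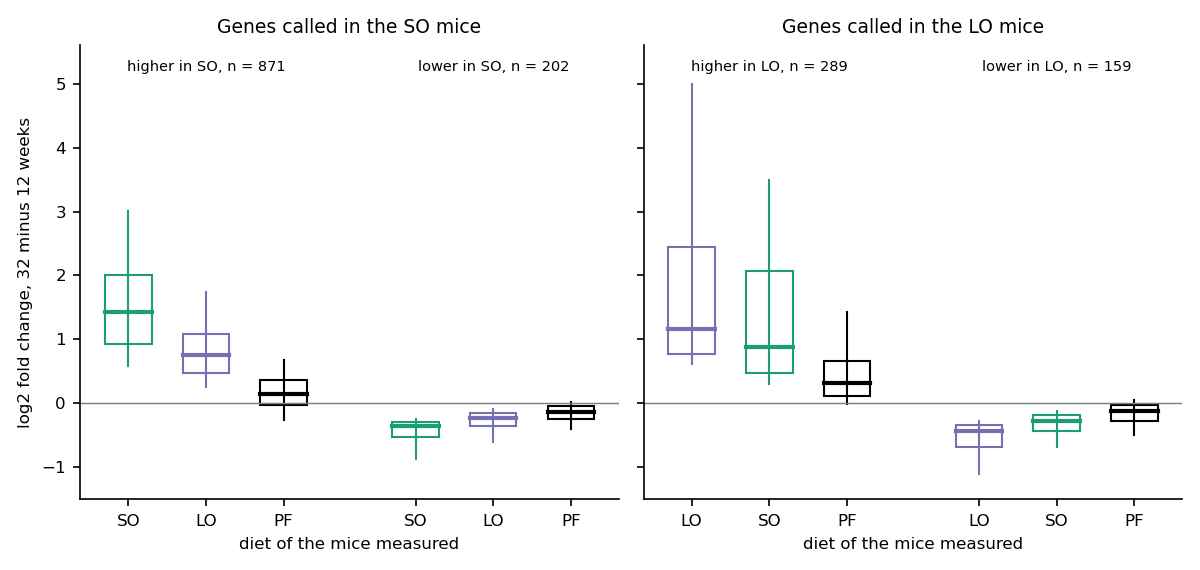
Log2 fold change (32 minus 12 weeks) of the genes called in SO mice (left) and in LO mice (right), measured in the mice of each diet: median (thick line), quartiles (box) and the 10th to 90th percentile (line). The genes that rose in SO mice have medians of 1.43 in SO, 0.75 in LO and 0.14 in PF mice.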

How the data were processed

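Ventral prostates of 30 male C57BL/6 mice were sequenced as stranded, poly(A)-selected, paired-end libraries. The deposited values are raw read counts per gene, which the authors made per the labels with TopHat, HTSeq and GRCm38.p6. The tool versions, the annotation release and the strand setting of the counting are not given in the sources used here, so a gene and its antisense partner may share reads. DESeq2 is also named in the submitters' processing notes. Lines with no gene (6.67% to 11.8% of read pairs outside genes in PF mice, 16% to 19% not uniquely aligned) were left out of library sizes and tests. Gene names and coordinates were matched to GENCODE M21 (37693 of 39179 identifiers), and promoter windows were taken from RefSeq.

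The 10 PF mice were compared with edgeR 4.0.16 in R 4.3.3 (TMM, filterByExpr, two-sided quasi-likelihood test, Benjamini-Hochberg adjustment, threshold 0.05). The SO and LO changes and their differences from the PF change came from 1 fit of all 30 mice, and CPM values are scaled within the 10 PF mice unless stated. DESeq2 1.42.0, another scaling, other filters, a robust fit, a replicate block and leaving out each PF mouse were alternatives. The scripts were tested on counts simulated with the means and dispersions of the 10 PF mice. There DESeq2 called 26 and edgeR 4 of 15578 genes set to no change. Of 100 genes changed by 1 log2 unit, DESeq2 called 90% and edgeR 82%. The changed genes had a mean of at least 1 CPM, and the simulated mice had no deviation shared between genes. These shares need not hold for the real mice. No 2 libraries of a group agreed within sampling noise.

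Named genes were the 15 with the smallest p in each direction among protein-coding genes, the 10 with the largest fold in each direction at a mean of at least 1 CPM, up to 4 of each of 50 lists, and the 5 with the smallest p for each difference between diets. As no gene was called, an unadjusted p under 0.05 took the place of a call. The comparison and lists were chosen with earlier results of these data known. The androgen-binding protein, immunoglobulin, ribosomal protein and beta-defensin lists, and single genes outside the rule (Sbp, Spink1, Cirbp, Adipoq, H2-Aa, Defb10, Gm26917, H1fx, Rps24, Gm11223, Slc6a15, Gm10419 and Gm53), were chosen after their values were seen. Some genes that the rule names are not reported here.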

Additional observations from a re-analysis of the deposited data

Results flagged for a closer look

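In the groups of 5 PF mice, 1 mouse stood apart in 13 of 122 groups of values (51 genes and 10 summed lists at each time), because its gap to the nearest other mouse was over 0.71 of the whole range. Chance alone flags about 1 in 20 groups, but 6 of the 13 came from Gm26917 and 3 immunoglobulin segments, which were chosen with these values seen or by their fold change, so the 13 cannot be read against that rate. At 32 weeks, mouse 2 had the lowest Rbm3 (185 CPM) and the highest Srd5a1 (5.28 CPM), Igf2bp2 (3.59 CPM) and Ighv1-76 (64 CPM). Mouse 1 at 32 weeks had the lowest Igfbp5 (213 CPM), the highest Gm26917 (6.72 CPM) and the highest summed interferon-stimulated genes (1227 CPM). Mouse 3 at 32 weeks had the highest summed skeletal muscle markers (624 CPM). At 12 weeks, mouse 1 had the highest Cacna1g (8.17 CPM) and Gm26917 (5.08 CPM), mouse 2 the highest Ighv1-76 (0.816 CPM) and Ighv3-1 (86.2 CPM), and mouse 3 the highest Ighv1-69 (86.4 CPM).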

How the results depend on the processing

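By edgeR, 0 genes were called between 12 and 32 weeks in PF mice under every alternative that kept the 10-mouse fit, including each mouse left out in turn (0 to 0) and the replicate block. The exceptions were DESeq2 (50 genes, 33 higher and 17 lower) and the fit of all 30 mice (5 genes, 3 higher and 2 lower), and the cause was not tested. The genes at an unadjusted p under 0.05 numbered 1215, from 693 without the 32-week mouse 5 to 2418 without the 32-week mouse 1, and 1503 with the replicate block. The same-numbered PF mice had deviations with correlations of 0.278, 0.0832, -0.0126, 0.188 and -0.0575. Between differently numbered mice the correlations ran from -0.255 to 0.277, so that of the mice numbered 1 was the highest. With 5 values it cannot be decided whether a number marks a shared step. The replicate block gave 0 genes for both differences between diets. The PF and SO changes differed in 0 to 3 genes with 1 PF mouse left out (3 without the 12-week mouse 5) and in 44 by DESeq2, and the PF and LO changes in 12 by DESeq2, which also called 1089 genes (448 by edgeR) for LO 32 against 12 weeks. The first principal component held 25.9% of the variance over all genes (36% over 500), and there the 32-week mouse 1 scored -21.7. Of the named genes, Ighv1-69 (-4.41) reversed to 0.17 with the block and spanned -5.11 to 1.82 with 1 mouse left out, and Ighv5-9-1 (-3.33) spanned -4.12 to 0.073, both through the 12-week mouse 3. The median of all genes stayed between -0.015 and 0.014. Genes under the count filter were not tested.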

Other observations

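Some genes of other lists differed between the times at an unadjusted p under 0.05, with the adjusted p above 0.5. Nr1d1, which encodes the clock repressor REV-ERB alpha, was at 55.5, 45.4, 33.7, 91.4 and 62.5 CPM at 12 weeks and 37.7, 35, 38.5, 40 and 35.6 CPM at 32 weeks, a difference of -0.63 ± 0.213 (log2, SE), and the clock gene Per1 differed by -0.54 ± 0.235. Csnk1d was the third of 21 clock genes lower at that p (14.3%, against 4.27% of all genes). The labels used here give no hour of killing. The zinc transporters Slc30a2, which moves zinc into vesicles, and Slc39a2, which brings zinc into the cell, were higher by 0.70 ± 0.226 and 0.55 ± 0.194. Hpgd, which inactivates prostaglandins, was at 44.2, 30.6, 27.5, 46.3 and 51.3 CPM and then at 70.4, 73.3, 60.8, 48.8 and 64.5 CPM, higher by 0.67 ± 0.179. Of the difference between PF and LO changes, the 5 smallest p-values belonged to Serpina3f, Iglv3, Dnajb9, Hspa13 and Bet1, and none passed the adjustment.

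The ribosomal protein gene Rps24 was at 2551, 2664 and 2357 CPM in the 12-week PF mice 1, 3 and 4, and at 779 to 1141 CPM in the other 7 PF mice. Its pseudogene Gm11223 was at 1.45, 2.17 and 2.57 CPM in the same 3 mice and at or under 0.131 CPM in the others. The histone gene H1fx was at 2.3 and 3.0 CPM in the PF mice numbered 1, and at or under 0.56 CPM in the other 8. These values are scaled in the fit of all 30 mice.

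Of 77 cytosolic ribosomal protein genes tested, 66 were higher at 32 weeks with a median of 0.10, 0 higher and 1 lower at an unadjusted p under 0.05 by edgeR, and 30 were higher without both PF mice numbered 1, with 0 higher and 12 lower at that p (15.6%, against 7.36% of all genes in that setting) and a median of -0.041.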
